A study of Mus musculus with 20 samples.

Results

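The replication-dependent histone genes encode the bulk histones of chromatin, the core histones H2A, H2B, H3 and H4 and the linker histone H1. They were taken as every gene whose symbol begins with Hist1h, Hist2h, Hist3h or Hist4h. The rule found 68 of the 24391 genes counted in the series. By symbol 6 fall in class H1, 18 in H2a, 19 in H2b, 12 in H3 and 13 in H4. The H2b class includes Hist3h2bb-ps, whose symbol marks a pseudogene. The 20 sequenced RNA samples all come from E2-10HA, a hybridoma (T cells fused with a tumour line) of mouse that is labelled as mature T cells. Cells with H2A.Z guides carried lentiCRISPRv2 with guides to both genes of the histone variant H2A.Z, which are H2afz and H2afv (n = 6). Their CRISPR control carried the empty lentiCRISPRv2 vector, and both groups were selected with puromycin (n = 6). NICD-ER cells carried the Notch intracellular domain (NICD) fused to the estrogen receptor binding domain, were sorted, and received 4-hydroxytamoxifen (4-OHT) or ethanol for 24 hours (n = 2 each). BioNICD cells carried BirA, a biotin ligase from bacteria, together with a NICD that it tags, either the form labelled DEP mutant or wild type, and were selected with histidinol and sorted (n = 2 each). All guide samples bear 1 line number in their titles and were treated as 1 line. Whether replicates were separate cultures is not stated, so the p-values reflect spread that could be technical.

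Cells make these histones mainly while they copy their DNA. Their mRNAs usually end in a conserved stem-loop instead of a poly(A) tail, and the stem-loop binding protein Slbp handles that end. Npat, recruited to histone gene clusters, switches the genes on at the start of DNA synthesis. Replacement histones such as H2A.Z and H3.3 are made from other genes throughout the cell cycle. The libraries were made from total RNA depleted of ribosomal RNA, without selection for poly(A) tails.

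Stem-loops are printed for the 2 most abundant linker histone genes and for the most abundant H4 and H3 gene, because this element defines the family. GENCODE vM21 transcripts of 44 of the 68 members held a 16-letter pattern that reads GG, any 2 letters, CTTTT, any letter, AG, any 2 letters and CC, as did those of 0.161% of the 55450 genes in that annotation. The letters were searched on the transcript strand only. The 16 letters of the match are in capitals.
Hist1h1e: cccaaaGGCTCTTTTCAGAGCCacccacaa
Hist1h1c: ccaaaaGGCTCTTTTCAGAGCCaccactcc
Hist1h4d: accaaaGGCCCTTTTCAGGGCCactacctt
Hist1h3e: caaaacGGCTCTTTTAAGAGCCacctccat

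Only 6 different stem-loops occurred. The form in Hist1h1e and Hist1h1c was found in 26 members of the H1, H2a, H2b and H3 classes. The form in Hist1h4d was found in 7 members, all of them H4 genes, and that in Hist1h3e in 6. A transcript without a match lacks these letters in its annotated length, which often stops short of the mRNA end in this family. Not all of these transcripts are short, since Hist2h2be had no match in 2620 bases and Hist1h2bc none in 1156. By class, 4 of 6 H1, 11 of 18 H2a, 10 of 19 H2b, 8 of 12 H3 and 11 of 13 H4 members had a match.

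Promoters are printed for Hist1h1c and Hist1h1a, linker histone genes that moved in opposite directions below, and for Hist2h2bb and Hist1h4d, the most abundant H2b and H4 genes. They run from 250 bases before to 50 bases after the start in RefSeq (GRCm38.p6, plus strand in all 4). Capitals mark matches to TATAAA (the TATA box), CCAAT or its reverse ATTGG, ATTTGCAT (the octamer of H2a and H2b promoters) and AAACACA (the H1 box).
Hist1h1c, chr13:23738557-23738856: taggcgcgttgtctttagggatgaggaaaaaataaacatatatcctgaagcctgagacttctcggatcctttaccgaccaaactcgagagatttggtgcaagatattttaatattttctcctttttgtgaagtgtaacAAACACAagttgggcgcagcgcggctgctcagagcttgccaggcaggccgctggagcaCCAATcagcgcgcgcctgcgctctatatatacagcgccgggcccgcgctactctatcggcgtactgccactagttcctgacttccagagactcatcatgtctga
Hist1h1a, chr13:23763418-23763717: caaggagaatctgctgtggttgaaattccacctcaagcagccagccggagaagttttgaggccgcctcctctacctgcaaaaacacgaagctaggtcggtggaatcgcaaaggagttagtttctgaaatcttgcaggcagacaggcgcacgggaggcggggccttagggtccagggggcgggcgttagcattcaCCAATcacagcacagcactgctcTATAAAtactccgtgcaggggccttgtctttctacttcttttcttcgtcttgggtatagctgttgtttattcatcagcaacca
Hist2h2bb, chr3:96269450-96269749: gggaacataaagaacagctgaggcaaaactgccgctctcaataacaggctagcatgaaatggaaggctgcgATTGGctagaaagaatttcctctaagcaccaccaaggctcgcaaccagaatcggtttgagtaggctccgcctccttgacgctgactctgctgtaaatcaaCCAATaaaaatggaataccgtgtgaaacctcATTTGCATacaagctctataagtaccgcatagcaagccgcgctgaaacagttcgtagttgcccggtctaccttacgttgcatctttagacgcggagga
Hist1h4d, chr13:23581318-23581617: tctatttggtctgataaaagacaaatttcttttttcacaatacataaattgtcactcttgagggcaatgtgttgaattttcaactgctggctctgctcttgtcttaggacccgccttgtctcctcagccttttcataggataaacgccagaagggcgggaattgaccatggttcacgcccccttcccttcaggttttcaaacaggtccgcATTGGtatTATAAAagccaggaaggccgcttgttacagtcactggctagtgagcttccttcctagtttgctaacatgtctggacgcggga

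Of the 68 members, 61 matched a RefSeq promoter, and each motif was searched on both strands. CCAAT was present in all 49 matched promoters of the H1, H2a, H2b and H3 classes but in 3 of the 12 H4 promoters, against 37.9% of all 27025 promoters of the table. TATAAA was present in 57.4% of the members' promoters and in 14.2% of all promoters. The octamer ATTTGCAT occurred in 7 of 17 H2a and 6 of 16 H2b promoters, in none of the other classes, and in 1.75% of all promoters. AAACACA occurred in 5 of 6 H1 promoters, that of Hist1h1a being the exception, in 9 of the 61 in all, and in 7.14% of all promoters. Promoters of H2a and H2b genes that start back to back can overlap, as those of Hist1h2ae and Hist1h2bg do. The same match can then be counted in both. These matches are descriptions of the letters and not measured binding sites.

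The members sit in 4 places in mm9, the build of the count files. Hist1 genes make up 54 of the 68 and lie on chromosome 13 between positions 21807582 and 24026782, in 4 stretches separated by more than 100000 bases. The 10 Hist2 genes lie on chromosome 3 (96023839 to 96074115), the 3 Hist3 genes on chromosome 11 (58762413 to 58768694) and Hist4h4 on chromosome 6 (136752514 to 136752952). A single exon was annotated for 56 members. For 9 members no read was counted in any sample, namely Hist1h2ao, Hist1h2ap, Hist2h2aa1, Hist2h2aa2, Hist1h2bq, Hist1h2br, Hist2h3c1, Hist2h3c2 and Hist1h4m. Each of these 9 shares exon bases with another member in the annotation, and the recorded counting command leaves out reads that fall on more than 1 gene. Their value of 0 therefore does not show that the genes were silent.

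Near-identical coding sequences make single values of many members uncertain. The share of a transcript's stretches of 50 bases that also occurs in another member had a median of 46.4% over the 68 members, and it exceeded 50% in 30 of them. By class the median was 1.10% in H1, 73.0% in H2a, 40.1% in H2b, 57.2% in H3 and 39.5% in H4. Hist1h1a, Hist1h1b, Hist1h1t, Hist2h2bb, Hist2h2be and Hist4h4 shared no such stretch with another member, and Hist1h1c shared 8.54%. These transcripts often differ in length from the counted exons, at 1560 against 725 bases for Hist1h1c and 2482 against 487 for Hist1h2ac. Where the transcript is longer, the share over the counted bases can be higher, and it was not measured. Sums per class were used beside single genes. The counting command had no option to count reads that map to several places, so such reads are missing from the class sums too.

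Levels are given in CPM, read counts scaled to the library total with TMM factors, and, where genes are compared with each other, in CPM per kb of exon. Total counts ran from 10704131 to 48238324 per sample, and the members took 0.969% to 1.49% of them. The 10 T cell markers summed to 4187 to 5667 CPM in every sample, and Ptprc alone held 2785 to 3751 CPM, most of that sum. Of the 10 markers, 4 were higher and 4 lower with the guides, 2 and 3 with 4-OHT, and 1 and 7 in the DEP mutant. With the guides Cd247 was at 19.1 ± 5.64 CPM, against 0.0847 ± 0.0789 CPM in control cells, while Lck was at 63.3 ± 14.8 CPM, against 177 ± 11.2 CPM in control cells (SD, n = 6 each). The part of these markers in the histone results was not tested. RNA of the fibroblast list (Col1a1, Col1a2, Col3a1, Dcn, Pdgfra) summed to 42.5 CPM in guide replicate 1 and 35.0 CPM in control replicate 1, against at most 0.285 CPM in every other sample. Of the 5 myeloid genes, Itgam was at 61.2 and 62.8 CPM in the wild-type BioNICD samples, where Lyz2, Csf1r, Mpo and Cd14 were each at 0.167 CPM or less, and the whole list summed to at most 2.06 CPM in every other sample. Rn45s, the ribosomal RNA precursor, held 6.73% to 7.67% of counts in control replicate 6 and guide replicates 5 and 6, against 1.84% to 4.53% in the others. Replicates 1 and 2 of the CRISPR groups carry label fields that replicates 3 to 6 lack, and these were treated as submission sets 1 and 2.

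Linker histone RNA was carried by 5 genes. Hist1h1e averaged 1781 CPM per kb over the 6 group means, Hist1h1c 1222, Hist1h1d 1118, Hist1h1b 635 and Hist1h1a 457 CPM per kb. The sixth member, Hist1h1t, is the linker histone of developing sperm cells and averaged 0.554 CPM per kb. In summed CPM, H1 was the largest of the 5 classes in all 20 samples, but H1 transcripts are longer. Reads that map to several copies were not counted, and repeated stretches were fewer in H1 (median 1.10%) than in H4 (39.5%). Summed in CPM per kb, H4 stood above H1 in every group but the guides, for example at 6841 ± 1077 for H4 and 5883 ± 774 for H1 in the CRISPR control (SD, n = 6) and at 5792 ± 38.2 for H4 and 3903 ± 12.1 for H1 with wild-type BioNICD (SD, n = 2).

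Each core class leaned on a few genes. Hist2h2bb reached 2560 CPM per kb, the highest value of any member, and held 43.4% of the H2b class in CPM, with Hist1h2bb next at 919 CPM per kb. In the H4 class Hist1h4d stood at 1828 CPM per kb, more than Hist1h4h at 779 CPM per kb. In the H3 class Hist1h3e stood at 626 and Hist1h3b at 366 CPM per kb. In the reads counted, H2a had no such high member, with Hist1h2ak at 478 and Hist2h2ac at 366 CPM per kb. Reads that map to several copies were not counted. The share of repeated stretches had a median of 73.0% in H2a, and was 10.2% in Hist1h4d and 0% in Hist2h2bb. The part of this share in the rankings was not tested. The 10 most abundant members held 60.3% of all members' CPM.

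**Figure D1:**
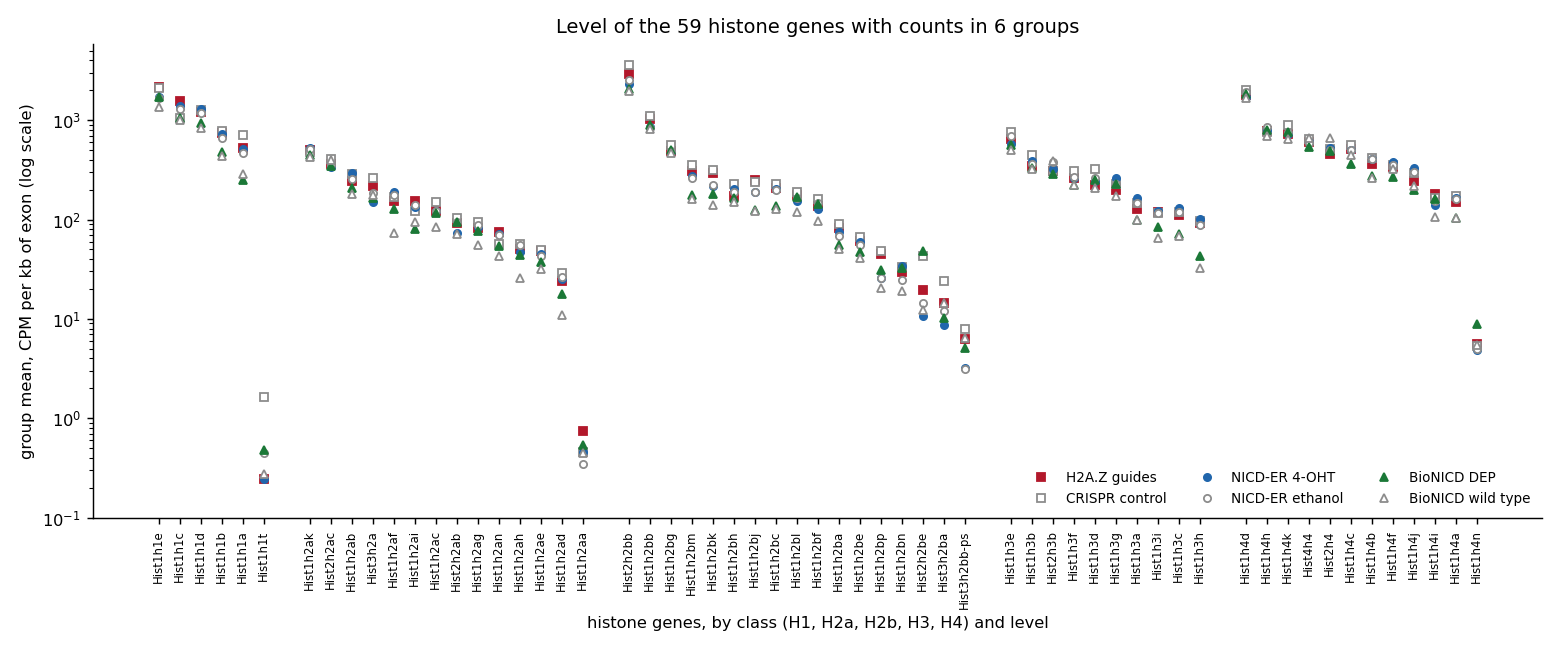
Group means of the 59 histone genes with counts, in CPM per kb of exon on a log axis, ordered by class and by level. Filled symbols are H2A.Z guides, 4-OHT and the DEP mutant, and open symbols are CRISPR control, ethanol and wild type. Hist2h2bb is the highest at 2560 CPM per kb, and the widest spread between groups is that of Hist1h1t (6.72 times) and Hist2h2be (4.50 times). Hist1h1t averages 0.407 CPM, so its ratio rests on few reads.

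Testis-linked variants were low with 1 exception. Hist1h1t averaged 0.407 CPM and Hist1h2aa 0.226 CPM over the groups. Hist1h2ba, the testis form of H2B, was counted at 30.3 CPM, or 70.2 CPM per kb. For Hist1h2ba, 38.2% of the stretches of 50 bases also occur in other members. A list of 5 genes of sperm cells summed to at most 3.25 CPM in any sample.

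Levels differed modestly between groups. Among the 59 members with counts, the highest group mean was a median of 1.67 times the lowest, and it was over 2 times the lowest in 14. The highest group mean was that of the CRISPR control in 34 members and the lowest was that of wild-type BioNICD in 41. The widest ratios belonged to Hist1h1t (6.72), Hist2h2be (4.50) and Hist1h3h (3.12), that of Hist1h1t resting on a mean of 0.407 CPM. Comparisons of levels across all 6 groups carry no test here, since vectors, selection and set differed between them.

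H2a and H2b genes often start back to back on opposite strands, and 11 such pairs lay within 500 bases of each other, with starts 173 to 306 bases apart. The 2 genes of a pair were rarely at like levels. The H2b gene stood higher per kb in 7 pairs and the H2a gene in 4. The ratio of H2b to H2a ran from 0.0279 to 140. The lowest ratio was that of Hist3h2a and Hist3h2bb-ps, a pseudogene by its symbol. Hist1h2ae stood at 42.4 CPM per kb and its partner Hist1h2bg at 500. Hist1h2ak stood at 478 CPM per kb and its partner Hist1h2bn at 28.9. Hist2h2ac stood at 366 CPM per kb and its partner Hist2h2be at 24.7, whose annotated exon of 2618 bases is far longer than a usual histone mRNA. Reads that map to several copies were not counted, which can move such ratios.

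**Figure D2:**
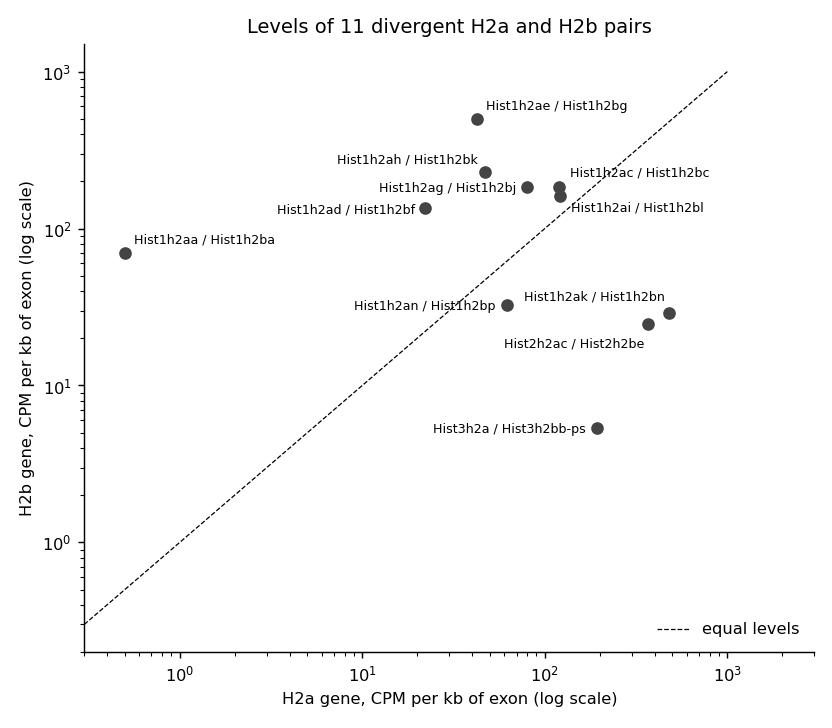
Mean level over the 6 groups of the H2a gene (horizontal axis) and the H2b gene (vertical axis) of 11 divergent pairs, in CPM per kb on log axes. Points above the dashed line (7 pairs) have the higher H2b gene, and the 4 points below it have the higher H2a gene. The H2b member paired with Hist3h2a is Hist3h2bb-ps, a pseudogene by its symbol.

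With guides against both H2A.Z genes, more members were lower than higher, and a few genes changed most. Hist2h2be, Hist3h2ba, Hist1h3d and Hist1h1a fell, while the linker histone gene Hist1h1c rose. Of 58 members tested, 3 were higher and 24 lower at an edgeR adjusted p under 0.05. Over all 10662 genes tested, 31.8% were higher and 32.7% lower, 64.5% in either direction, so 24 of 58 is a share not far above the background and 3 of 58 is well below it. The median log2 fold change was -0.17 over the members and -0.01 over all genes. In bulk RNA, fewer cells that make these transcripts and less RNA per cell cannot be told apart. Hist1h2aa fell under the low-count filter and the other 9 untested members had no counts.

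The targeted genes checked the labels first. H2afz averaged 5.20 ± 0.429 CPM in guide cells and 28.3 ± 2.52 CPM in control cells (SD, n = 6 each), and H2afv averaged 36.1 ± 12.0 CPM in guide cells and 128 ± 11.8 CPM in control cells.

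Linker histones moved in different directions. Hist1h1c, a widely expressed H1 gene, had a lowest, median and highest level of 905, 1126 and 1258 CPM in guide cells, against 601, 811 and 865 CPM in control cells. Every guide sample lay above every control sample. Its log2 fold change was 0.54 (SE 0.075, edgeR adjusted p = 9.67e-06), with 0.76 in set 1 and 0.45 in set 2.

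Hist1h1a, whose printed promoter lacks the H1 box letters, had 269, 415 and 455 CPM in guide cells, against 413, 534 and 588 CPM in control cells. The pooled groups overlapped, since guide samples of set 2 reached the level of the set 1 controls, and they did not overlap within either set. The log2 fold change was -0.42 (SE 0.0677, edgeR adjusted p = 5.34e-05), with -0.49 in set 1, where it missed the threshold (adjusted p = 0.0606), and -0.37 in set 2. Hist1h1e averaged 1674 ± 207 CPM in guide cells and 1635 ± 108 CPM in control cells and did not pass the test (0.03, edgeR adjusted p = 0.759).

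Hist1h1t had 0 to 4 reads in each guide sample, against 9 to 21 reads in each control sample. In CPM its lowest, median and highest values were 0, 0.194 and 0.322 with the guides, against 0.849, 1.31 and 1.48 in the control. The groups did not overlap, and the log2 fold change was -2.68 (SE 0.328, edgeR adjusted p = 2.61e-06). The gene passed the low-count filter only through the control samples, so that a difference was built into its being tested.

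Among H2a members 1 was higher and 5 were lower of 13 tested. Hist1h2an, at 25.3, 33.8 and 43.0 CPM in guide cells against 20.2, 24.0 and 32.9 CPM in control cells, was the one that rose (0.38, SE 0.117, edgeR adjusted p = 0.00981). Its groups overlapped, it missed the threshold in set 1 alone (0.11, adjusted p = 0.568), and 85.8% of its stretches of 50 bases are shared with other members. Hist3h2a, from the small chromosome 11 locus, averaged 110 ± 13.7 CPM in guide cells and 134 ± 4.48 CPM in control cells, and no sample overlapped (-0.30, edgeR adjusted p = 0.0006).

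In the H2b class 0 were higher and 8 lower of 17 tested. Of the class, 9 members passed neither way, and 1 of the 17 had a fold change above 0. Hist2h2be had 40.1, 43.6 and 77.9 CPM in guide cells, against 104, 113 and 118 CPM in control cells. Both guide samples of set 1, at 59.4 and 77.9 CPM, stood above the 4 of set 2, at 40.1 to 44.1 CPM, and all 6 stood below every control. Its log2 fold change was -1.18 (SE 0.116, edgeR adjusted p = 2.17e-07), with -0.63 in set 1 and -1.45 in set 2.

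Hist2h2bb, the most abundant H2b gene, had 1209, 1474 and 1605 CPM in guide cells, against 1523, 1813 and 1975 CPM in control cells. The groups overlapped slightly and the gene fell by 0.33 on the log2 scale (SE 0.0439, edgeR adjusted p = 5.97e-06). Hist3h2ba had 5.12, 6.86 and 8.25 CPM in guide cells, against 9, 11.1 and 13.2 CPM in control cells, a log2 fold change of -0.73 with no overlap (SE 0.125, edgeR adjusted p = 8.93e-05). Hist1h2bh, at 90.1 ± 12.9 CPM in guide cells and 119 ± 8.59 CPM in control cells, did not overlap either (-0.41, edgeR adjusted p = 1.92e-05).

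Of 10 H3 members tested, 0 were higher and 6 lower. Hist1h3d had 93.8, 116 and 124 CPM in guide cells, against 126, 167 and 188 CPM in control cells, and was separate between the groups. Its log2 fold change was -0.54 (SE 0.0437, edgeR adjusted p = 2.03e-08). The other 5 fell by 0.22 to 0.36 on the log2 scale. They were Hist1h3a (-0.22), Hist1h3b (-0.36), Hist1h3e (-0.25), Hist1h3f (-0.26) and Hist1h3g (-0.23), and the groups overlapped in each.

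Of 12 H4 members, 1 was higher and 3 were lower. Hist1h4d, the most abundant, averaged 660 ± 103 CPM in guide cells and 748 ± 91.4 CPM in control cells (-0.19, edgeR adjusted p = 0.0022). Hist1h4i averaged 73.4 ± 3.08 CPM in guide cells and 65.9 ± 6.62 CPM in control cells (0.15, edgeR adjusted p = 0.0232). Its call was lost without control replicate 2 (0.12, adjusted p = 0.0651), without control replicate 3 (0.12, adjusted p = 0.0628), without the 3 samples highest in Rn45s (0.18, adjusted p = 0.0513) and in either set alone.

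Across the 58 members, all guide samples lay above all controls in 1 and below them in 6, against 17.1% and 16.5% of all genes. The 6 were Hist1h1t, Hist3h2a, Hist1h2bh, Hist2h2be, Hist3h2ba and Hist1h3d. Without Hist1h1t, whose testing rested on the control samples, 5 of 57 members lay below all controls and 23 were called lower.

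**Figure D3:**
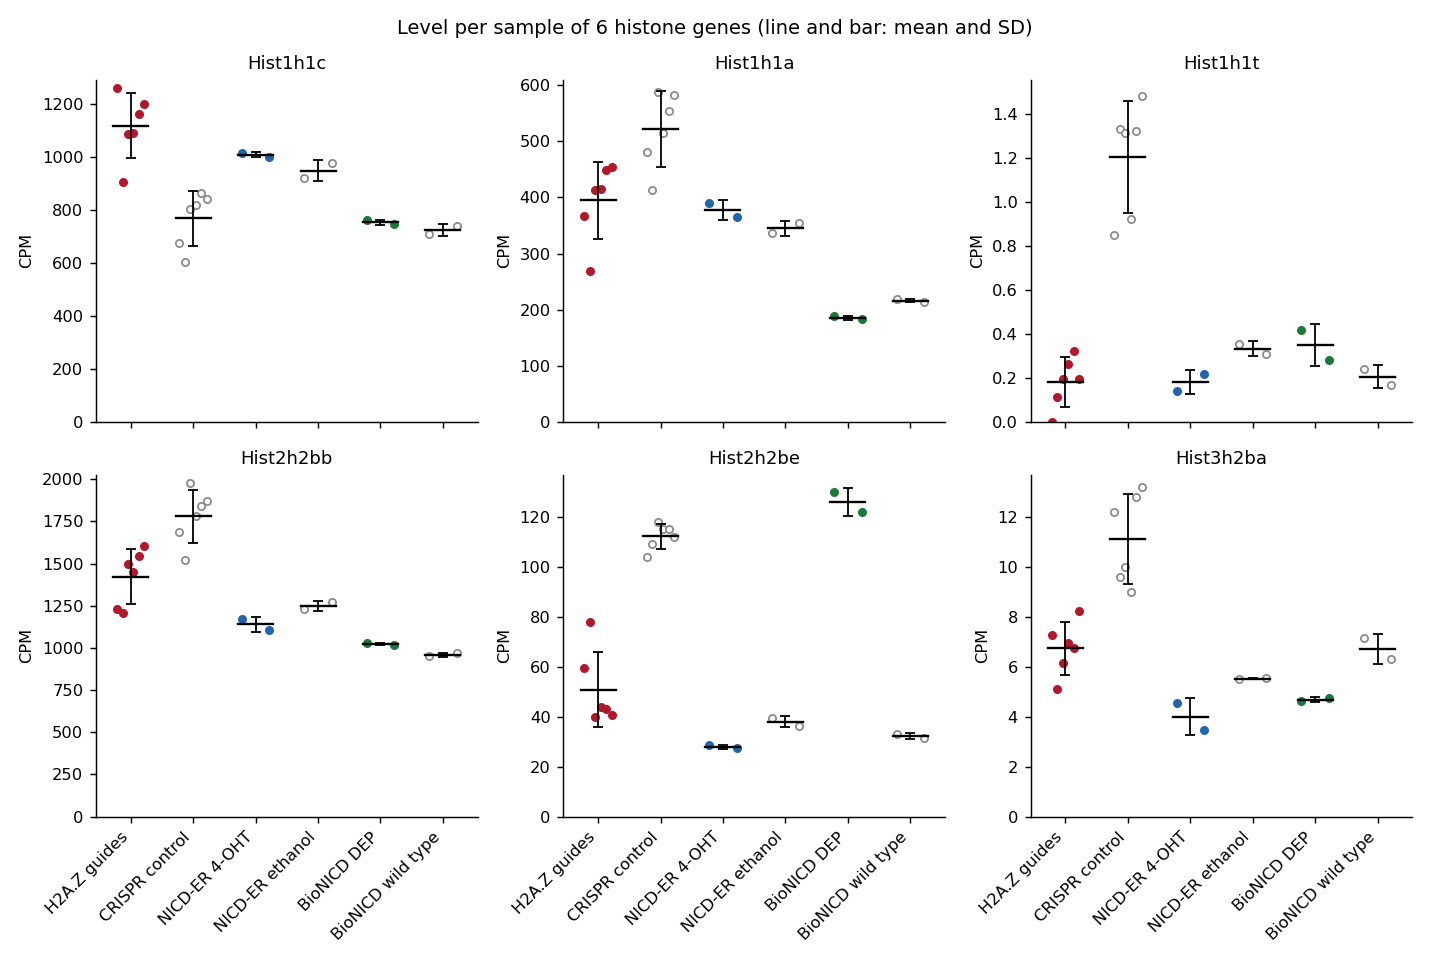
CPM of 6 histone genes in all 20 samples, each point a sample, with the line and bar giving the group mean and SD. Hist1h1c lies higher and Hist1h1t, Hist2h2be and Hist3h2ba lie lower in all 6 guide samples than in any control, and Hist2h2be is at 122 and 130 CPM in the DEP mutant, against 31.3 and 33.2 CPM with wild-type BioNICD.

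Summed by class, H2b was lower with the guides within each submission set. In set 1 the H2b sum was 2709 and 2968 CPM in guide cells, against 3238 and 3445 CPM in control cells. In set 2 it ran from 3274 to 3626 CPM with the guides, against 3970 to 4249 CPM in the control. No sample overlapped within a set, while the pooled groups did overlap, at 3228 ± 333 CPM in guide cells and 3846 ± 410 CPM in control cells. A large part of the difference lay in Hist2h2bb. In set 1 this gene averaged 1221 CPM in guide cells and 1604 CPM in control cells, where the class averaged 2838 and 3342 CPM. In set 2 it averaged 1524 CPM in guide cells and 1868 CPM in control cells, where the class averaged 3423 and 4098 CPM.

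H1 showed no such order between guide and control sums. Its sum was 4711 ± 507 CPM in guide cells and 4516 ± 595 CPM in control cells. In set 1 it was 3791 and 5188 CPM in guide cells against 3635 and 3901 CPM in control cells, so the guide samples differed between themselves by more than the controls did. In set 2 it ran from 4621 to 5079 CPM with the guides against 4742 to 5015 CPM in the control. As a share of all members, H1 made up 37.2% with the guides and 33.0% in the control.

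H2a, H3 and H4 sums were lower in both guide samples of set 1 and overlapped in set 2. In set 1 H2a was 832 and 930 CPM in guide cells against 943 and 1005 CPM in control cells. H4 was 1847 and 1882 CPM in guide cells of set 1 against 2211 and 2250 CPM in control cells. In set 2 the H4 samples overlapped, at 2579 to 2815 CPM with the guides against 2615 to 3209 CPM in the control. The sum over all 68 members was 12701 ± 1490 CPM in guide cells and 13692 ± 1791 CPM in control cells, and the groups overlapped. Both groups stood lower in set 1 than in set 2, at 11046 and 13529 CPM on average with the guides and 11548 and 14764 CPM in the control. Class sums are given without a test.

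**Figure D4:**
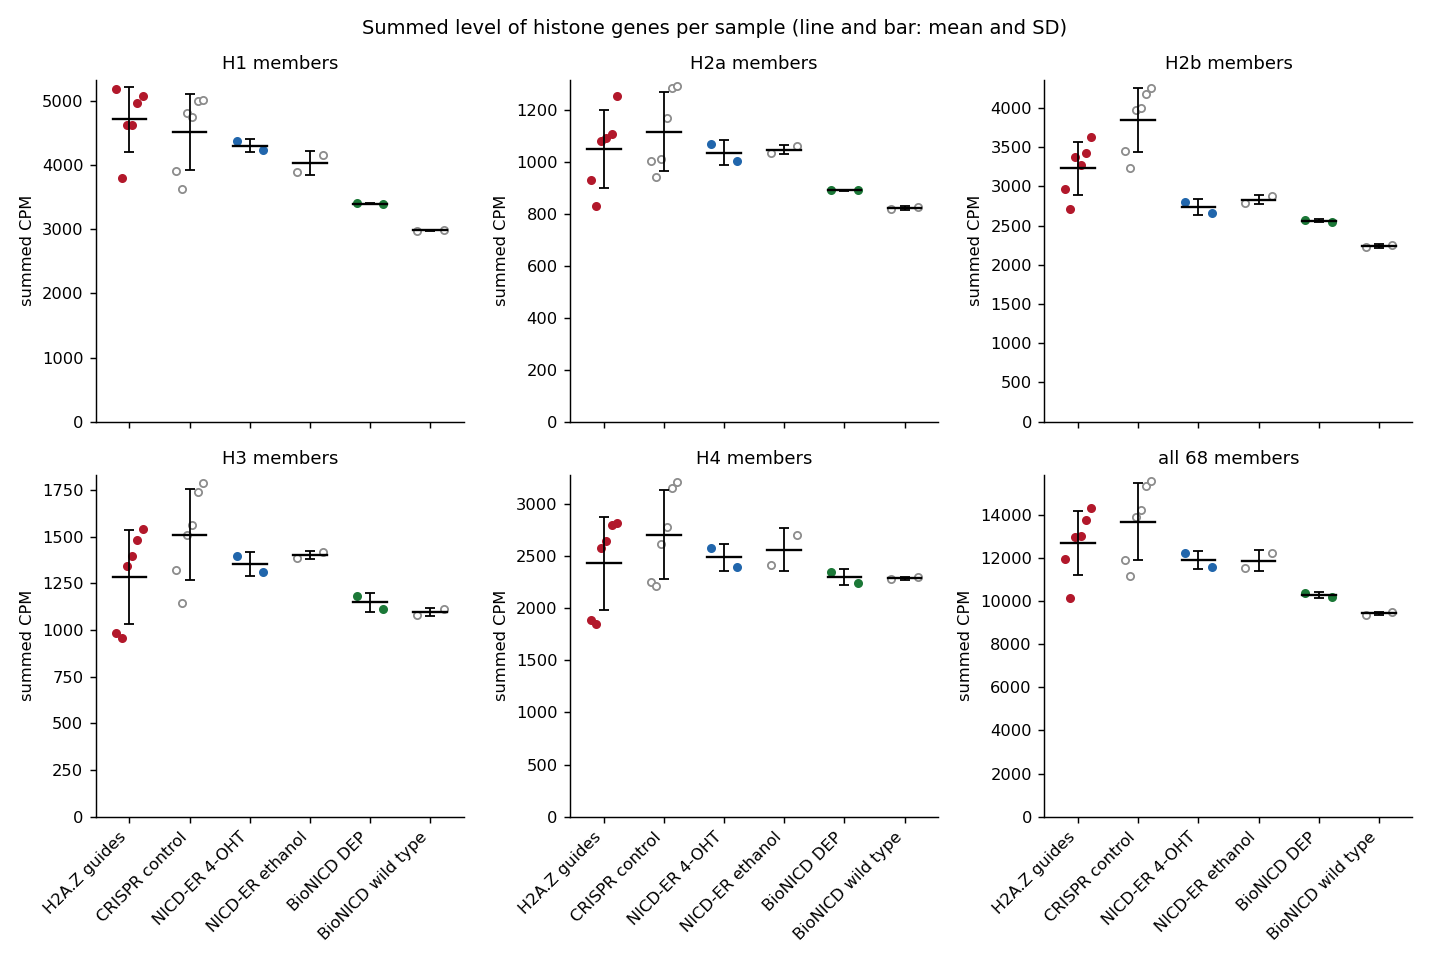
Summed CPM of the members of each class, and of all 68, in each of the 20 samples, with lines and bars for the group mean and SD. The H2b sums with the guides run from 2709 to 3626 CPM, against 3238 to 4249 CPM in the control, and the 2 control samples of set 1 lie below the 4 of set 2 in the H2b sum.

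The guide effect differed between submission sets in 6 of 58 members (edgeR interaction test). In set 2 the signed log2 fold change was higher in 3 and lower in 3. Over all genes tested the share was 15.7%, with 8.19% higher and 7.49% lower. For Hist2h2be the difference, set 2 minus set 1, was -0.83 on the log2 scale. The difference was above 0 in Hist1h4a (0.93), Hist2h3b (0.64) and Hist1h4c (0.57). Their log2 fold changes were -0.97, -0.52 and -0.61 in set 1, and -0.01, 0.13 and -0.03 in set 2. For Hist1h1d (-0.48) and Hist1h2bp (-0.79) the difference was below 0. Their log2 fold changes were 0.29 and 0.46 in set 1, and -0.18 and -0.33 in set 2. Guide replicates 1 and 2 are the 2 guide samples of set 1. Without guide replicate 2, 24 members differed, and without control replicate 1, 2 did. Set 1 has 2 samples a group and holds the samples with fibroblast-list RNA, whose part in this was not tested.

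Without guide replicate 1 and control replicate 1, the samples with that RNA, 4 members were higher and 33 lower with the guides. Of all genes, 34.4% were higher and 34.4% lower in that fit. Without the 3 samples highest in Rn45s, 2 members were higher and 19 lower, against 28.5% and 26.1% of all genes.

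In NICD-ER cells, 4-OHT, the ligand that activates the fused receptor domain, left the histone genes close to the ethanol level. Hist1h1a, Hist1h1b and Hist1h1d, linker histone genes, rose slightly, and Hist2h2be, Hist3h2ba, Hist2h2ab and Hist3h2a fell. Of 58 members tested, 9 were higher and 11 lower, against 19% and 17.2% of 12499 genes, 36.2% in either direction. These shares of 58 are near the background. In a model of all 20 samples 0 members were higher and 2 lower, against 9.48% and 9.02% of all genes. Nearly all of the calls named below thus rest on the model of the 8 NICD samples. The median log2 fold change was 0.02 over the members and -0.00 over all genes. The groups were separate in 13 members above and 14 below, against 32.3% and 34.2% of all genes. With 2 samples a group, an exact permutation test of a single value cannot go below p = 0.333, so calls rest on the spread shared across genes.

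The sum over all members was 11605 and 12221 CPM with 4-OHT, against 11525 and 12217 CPM with ethanol. H1 was the class whose groups did not overlap, at 4232 and 4371 CPM with 4-OHT against 3899 and 4164 CPM with ethanol. H2a, H2b, H3 and H4 sums overlapped.

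Within H1, Hist1h1d had 975 and 1030 CPM with 4-OHT, against 893 and 934 CPM with ethanol (log2 fold change 0.14, SE 0.0387, edgeR adjusted p = 0.00588). Hist1h1a and Hist1h1b rose by 0.13 and 0.14. Hist1h1c, at 1001 and 1015 CPM with 4-OHT against 919 and 975 CPM with ethanol, narrowly missed the threshold (0.10, edgeR adjusted p = 0.053). Without 4-OHT replicate 1 the calls were lost for Hist1h1d (0.10, adjusted p = 0.138) and Hist1h1a (0.08, adjusted p = 0.206), and for Hist1h1a also without ethanol replicate 1 (0.09, adjusted p = 0.0993).

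Hist2h2be had 27.4 and 28.6 CPM with 4-OHT, against 36.4 and 39.6 CPM with ethanol. It was lower in both treated samples (-0.43, SE 0.059, edgeR adjusted p = 2.73e-06). Hist2h2ab, an H2a gene of the same chromosome 3 locus, had 31.4 and 32.4 CPM with 4-OHT against 40.0 and 42.5 CPM with ethanol (-0.36, edgeR adjusted p = 2.4e-05). The other chromosome 3 genes called lower were Hist2h2bb (-0.13) and Hist2h3b (-0.22), and both calls were lost without 4-OHT replicate 2 (adjusted p = 0.153 and 0.0853).

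Hist3h2a had 74.5 and 77.0 CPM with 4-OHT, against 93.9 and 95.0 CPM with ethanol (-0.31, edgeR adjusted p = 9.23e-06). Its neighbour Hist3h2ba had 3.48 and 4.54 CPM with 4-OHT, against 5.51 and 5.56 CPM with ethanol (-0.47, edgeR adjusted p = 0.0103). That call was lost without 4-OHT replicate 2 (-0.28, adjusted p = 0.227). Hist1h3e, the most abundant H3 gene, had 266 and 281 CPM with 4-OHT against 325 and 333 CPM with ethanol (-0.26, edgeR adjusted p = 5.56e-06).

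The largest rise was in Hist1h2bn, at 14.3 and 15.2 CPM with 4-OHT against 8.28 and 12.8 CPM with ethanol (0.49, SE 0.128, edgeR adjusted p = 0.00405). Ethanol replicate 1 alone set much of the difference, and without it the call was lost (0.21, adjusted p = 0.165). Hist1h3h (0.21), Hist1h2ab (0.21), Hist1h3g (0.20) and Hist1h3a (0.18) were also called higher. Without 4-OHT replicate 1 the calls of Hist1h3h (0.12, adjusted p = 0.326) and Hist1h3a (0.09, adjusted p = 0.295) were lost. All 4 share 49.5% or more of their stretches of 50 bases with other members. Without 4-OHT replicate 1, 3 members were higher. Without ethanol replicate 2, 19 were higher, and without 4-OHT replicate 2, 4 were lower.

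The DEP mutant of BioNICD had higher summed H1, H2a and H2b levels than wild-type BioNICD, and Hist2h2be stood far apart from the other members. Of 58 members, 33 were higher and 9 lower, against 33.6% and 32% of 12499 genes, 65.6% in either direction. The share called higher, 33 of 58, exceeded the background and the share called lower fell short of it. The median log2 fold change was 0.16 over the members and 0.02 over all genes. Groups were separate in 39 members above and 11 below, against 40.9% and 39.7% of all genes. All member counts were even in wild-type replicate 1. Double counting in that sample was not tested and would overstate the precision of the calls below.

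The sum over all members was 10186 and 10398 CPM in the DEP mutant, against 9375 and 9484 CPM with wild-type BioNICD. H1 was 3397 and 3403 CPM in the DEP mutant, against 2980 and 2991 CPM with wild type. H2a was 892 ± 1.74 CPM in the DEP mutant and 824 ± 8 CPM with wild type (SD, n = 2 each). H2b was 2545 and 2572 CPM in the DEP mutant, against 2220 and 2255 CPM with wild type, and neither class overlapped. H3 and H4 sums overlapped.

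Hist2h2be had 122 and 130 CPM in the DEP mutant, against 31.3 and 33.2 CPM with wild type. Both mutant samples stood far above both wild-type samples. The log2 fold change was 1.96 (SE 0.0552, edgeR adjusted p = 3.12e-19). Its divergent partner Hist2h2ac moved the other way, at 161 and 161 CPM in the DEP mutant against 184 and 185 CPM with wild type (-0.19, edgeR adjusted p = 0.000296). The starts of these 2 genes lie 241 bases apart on chromosome 3.

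In the H1 class Hist1h1e had 1338 and 1357 CPM in the DEP mutant, against 1045 and 1075 CPM with wild type (0.35, SE 0.0384, edgeR adjusted p = 2.64e-08). Hist1h1d (0.20) and Hist1h1b (0.16) also rose. Hist1h1a was the H1 gene that fell, with 183 and 188 CPM in the DEP mutant against 214 and 218 CPM with wild type (-0.21, edgeR adjusted p = 7.46e-05).

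Of 13 H2a members 9 were higher and 2 lower, and H2a was the class with the highest median log2 fold change (0.34). Hist1h2af had 56.0 and 62.4 CPM in the DEP mutant, against 33.8 and 34.9 CPM with wild type (0.80, SE 0.0612, edgeR adjusted p = 7.57e-11). Hist1h2ah had 22.7 and 23.6 CPM in the DEP mutant, against 13 and 13.9 CPM with wild type (0.80, edgeR adjusted p = 3.67e-08). Hist1h2ad had 9.38 and 9.60 CPM in the DEP mutant, against 5.53 and 6.09 CPM with wild type (0.74, edgeR adjusted p = 1.17e-05). These 3 share 67.1% to 90.7% of their stretches of 50 bases with other members.

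Among 17 H2b members, 11 were higher and 1 lower. Beside Hist2h2be, Hist1h2bn had 12.4 and 15.5 CPM in the DEP mutant, against 8.01 and 8.54 CPM with wild type (0.77, edgeR adjusted p = 7.69e-05). The abundant Hist2h2bb was little changed, at 1019 and 1029 CPM in the DEP mutant against 950 and 968 CPM with wild type (0.10, edgeR adjusted p = 0.0184). That call was lost without wild-type replicate 1 (0.08, adjusted p = 0.155) and without DEP mutant replicate 1 (0.10, adjusted p = 0.0636). Hist3h2ba was the H2b gene that fell, with 4.63 and 4.75 CPM in the DEP mutant against 6.30 and 7.14 CPM with wild type (-0.53, edgeR adjusted p = 0.0035), and it missed the threshold without wild-type replicate 1 (-0.42, adjusted p = 0.0605).

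H3 and H4 split in direction. Of 10 H3 members 5 were higher and 1 lower, and the lower one was Hist2h3b, at 129 and 162 CPM in the DEP mutant against 192 and 195 CPM with wild type (-0.41, edgeR adjusted p = 3.6e-06). Of 12 H4 members 5 were higher and 4 lower. Hist2h4 had 169 and 203 CPM in the DEP mutant, against 251 and 253 CPM with wild type (-0.43, edgeR adjusted p = 6.16e-06). Hist1h4c (-0.28), Hist1h4f (-0.27) and Hist4h4 (-0.27) were lower as well.

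Hist1h4n, the one gene with counts among those that share exon bases, had 5.64 and 7.53 CPM in the DEP mutant against 3.67 and 4.25 CPM with wild type (0.73, edgeR adjusted p = 0.00459). Without DEP mutant replicate 2 its call was lost (0.49, adjusted p = 0.136). The myeloid gene Itgam was at 0.136 ± 0.0595 CPM in the DEP mutant and 62.0 ± 1.14 CPM with wild type, and its part in the histone differences was not tested.

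**Figure D5:**
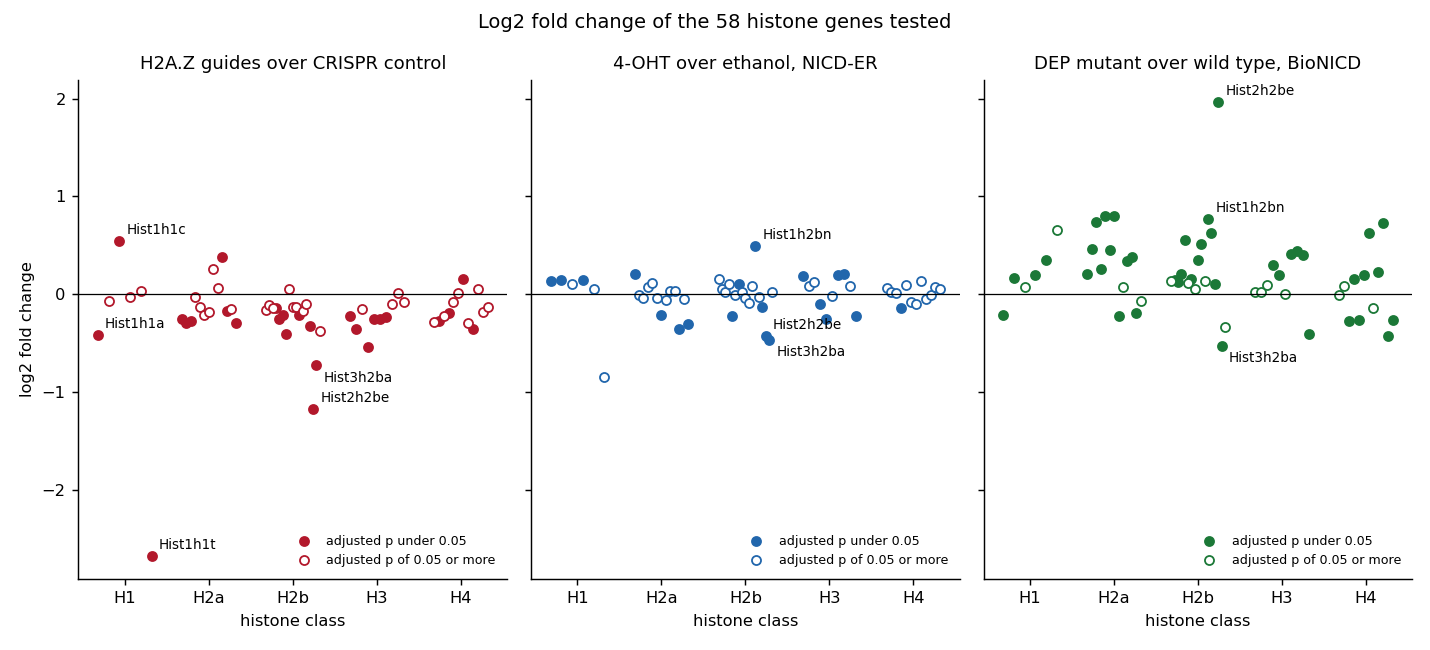
Log2 fold change of the 58 tested members by class in the 3 comparisons, filled where the edgeR adjusted p was under 0.05. Most points lie between -0.5 and 0.5, and the widest are Hist1h1t (-2.68) and Hist2h2be (-1.18) with the H2A.Z guides and Hist2h2be (1.96) in the DEP mutant. With the guides, Hist1h1t had few reads and passed the low-count filter only through the control samples.

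Genes around the histone genes were read from 4 lists. Over all genes tested, 31.8% were higher and 32.7% lower with the guides, 19% and 17.2% with 4-OHT, and 33.6% and 32% in the DEP mutant, and the counts below are read against these shares. Slbp averaged 165 ± 8.94 CPM in guide cells and 137 ± 9.59 CPM in control cells (0.26, edgeR adjusted p = 3.25e-05), 139 ± 5.04 CPM with 4-OHT and 115 ± 3.59 CPM with ethanol (0.28, edgeR adjusted p = 4.05e-06), and 104 ± 2.37 CPM in the DEP mutant and 97.2 ± 1.14 CPM with wild type (0.10, edgeR adjusted p = 0.0359). Slbp was thus higher in all 3 comparisons. Npat rose in the DEP mutant, to 121 ± 1.62 CPM against 96.8 ± 0.992 CPM with wild type (0.33, edgeR adjusted p = 3.08e-07). It averaged 118 ± 13.4 CPM in guide cells and 122 ± 9.89 CPM in control cells, and 112 ± 0.534 CPM with 4-OHT and 106 ± 4.12 CPM with ethanol, and passed the test in neither (edgeR adjusted p = 0.38 and 0.139). Values with ± in these lists are SD over 6 samples a group for the guides and 2 for the others.

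Of 21 factors of histone transcription and histone mRNA processing or decay, 6 were higher and 7 lower with the guides, 4 and 3 with 4-OHT, and 11 and 4 in the DEP mutant. In total 13, 7 and 15 of the 21 were called, against 64.5%, 36.2% and 65.6% of all genes, which is near the background. Xrn1, a nuclease that degrades RNA from its start, rose with the guides to 78.6 ± 6.22 CPM, against 42.1 ± 2.63 CPM in the control (0.89, edgeR adjusted p = 2.14e-09). Hinfp, a transcription factor of H4 genes, fell with the guides to 41.7 ± 5.34 CPM, against 59.3 ± 3.25 CPM in the control (-0.52). In the DEP mutant Hinfp stood at 56.9 ± 1.96 CPM, against 33.9 ± 0.201 CPM with wild type (0.75), while Zcchc6, an enzyme that adds uridines to RNA ends, stood at 63.7 ± 5.95 CPM against 100 ± 1.79 CPM with wild type (-0.64). Casp8ap2, a partner of Npat, rose with 4-OHT (0.37).

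Of 24 DNA replication genes, 4 were higher and 14 lower with the guides, with a median log2 fold change of -0.22, against 31.8% and 32.7% of all genes. The guide effect differed between submission sets in 10 of the 24, against 15.7% of all genes. All 10 had the higher signed log2 fold change in set 2 (median difference 0.22 over the 24). With 4-OHT 20 were higher and 1 lower (median 0.22), and in the DEP mutant 16 were higher and 3 lower (median 0.23). Their summed level did not overlap in any comparison, nor within a set, where it was 4021 and 4036 CPM in guide cells against 5215 and 5261 CPM in control cells in set 1, and 5082 to 5197 CPM in guide cells against 5601 to 5670 CPM in control cells in set 2. It ran from 4021 to 5197 CPM with the guides against 5215 to 5670 CPM in the control, was 4453 and 4570 CPM with 4-OHT against 4014 and 4018 CPM with ethanol, and was 4042 and 4069 CPM in the DEP mutant against 3246 and 3258 CPM with wild type.

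Rrm2, a subunit of the enzyme that makes deoxynucleotides, averaged 775 ± 15.9 CPM in the DEP mutant and 428 ± 5.54 CPM with wild type (0.87). The cyclin Ccne2 averaged 30.7 ± 0.444 CPM in the DEP mutant and 14.8 ± 0.885 CPM with wild type (1.05), and it rose with 4-OHT as well (0.44). Ung, which removes uracil from DNA, fell with the guides to 16.9 ± 7.04 CPM, against 34.5 ± 7.28 CPM in the control (-1.10). Cdt1, which licenses replication origins, went the other way, at 92.9 ± 14.2 CPM in guide cells and 62.5 ± 7.58 CPM in control cells (0.56). Tyms, the thymidylate synthase gene, was higher with 4-OHT (0.46).

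Of 9 histone chaperones and carriers, 1 was higher and 3 lower with the guides, 6 and 1 with 4-OHT, and 7 and 1 in the DEP mutant. The counts with the guides are below the share over all genes in the higher direction and near it in the lower, and the list has few genes. Asf1b, a chaperone of H3 and H4, averaged 142 ± 3.94 CPM with 4-OHT and 103 ± 7.27 CPM with ethanol (0.46). Hat1, which acetylates new H4, averaged 162 ± 29.3 CPM in guide cells and 234 ± 10.6 CPM in control cells (-0.56). Chaf1b, a chromatin assembly factor subunit, averaged 27.9 ± 0.988 CPM in the DEP mutant and 41.7 ± 0.531 CPM with wild type (-0.57).

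Of 8 replacement histone genes tested out of 10, 2 were higher and 3 lower with the guides, the targeted H2afz and H2afv among the lower ones. With 4-OHT 4 were higher and 1 lower, and in the DEP mutant 5 were higher and 2 lower. H2afv averaged 120 ± 2.33 CPM in the DEP mutant and 68.1 ± 5.07 CPM with wild type (0.84, edgeR adjusted p = 1.4e-12), and H2afj averaged 69.8 ± 1.42 CPM in the DEP mutant and 41.3 ± 1.05 CPM with wild type (0.77). H2afz averaged 29.7 ± 1.3 CPM with 4-OHT and 23.0 ± 3.72 CPM with ethanol (0.38, edgeR adjusted p = 0.00131).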

How the data were processed

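Stranded libraries were made from total RNA after removal of ribosomal RNA, per the labels' protocols. Trimmomatic, STAR, FastQC, DESeq2, featureCounts and mm9 appear in the submitters' processing notes. Reads on exons were counted per gene by featureCounts 1.5.0, per the file headers, with no strand, multi-mapping or overlap option, so reads from a gene and its antisense partner cannot be told apart. The deposited values are raw counts with no normalization.

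From these counts edgeR 4.0.16 (R 4.3.3) was fitted with TMM scaling, the filterByExpr filter, the quasi-likelihood test and Benjamini-Hochberg adjustment over all genes, calling genes where the adjusted p was under 0.05. For the H2A.Z comparison the model held 12 samples with the submission set as covariate, and the NICD model 8 samples. The SE is the absolute log2 fold change over the square root of F. Alternatives were DESeq2 1.42.0, other scalings, filters and models, and left-out replicates. The fits were tested on simulated data. Groups come from titles, since in 6 of 8 CRISPR samples numbered 3 to 6 the description names another group, while the plasmid named there matches the title. Mean chi-square per gene between replicates was 2.66 or more, the lowest being the wild-type BioNICD pair, so none was counted as a duplicate. It was 2.75 for guide replicates 3 and 4 and 3.23 for 5 and 6, against 39 to 53.6 across these pairs. Control replicates 3, 4 and 5 stood at 2.99 to 4.43, against 34 to 37.1 with replicate 6. Set 2 samples thus differ in how alike they are, and 6 samples a group may overstate independent replication. Total counts per sample ran from 10704131 to 48238324, and precision is limited by counting error in genes of few reads. The highest total was that of wild-type BioNICD replicate 1, where all member counts were even, against 23081893 in replicate 2. Double counting in wild-type BioNICD replicate 1 was not tested and would overstate its precision. Members and lists were chosen with earlier results of these data known. Named members are the 2 highest per kb in each class, up to 6 called in each direction per comparison with the largest change, and testis variants. From the lists, Slbp, Npat and the H2A.Z genes are named, with up to 2 called genes of largest change per list and comparison. Other members named were chosen after their values were seen. Promoters are RefSeq's (GRCm38.p6) and transcripts GENCODE vM21's, used for letters only.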

Additional observations from a re-analysis of the deposited data

Results flagged for a closer look

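In 4 cases 1 sample of 6 stood apart from the other 5 of its group. Hist1h1d in guide replicate 2 was at 714 CPM, against 933 to 1027 CPM in the other guide samples. Hist2h2ac in the same sample was at 121 CPM, against 173 to 198 CPM. Hist4h4 in guide replicate 1 was at 338 CPM, against 234 to 262 CPM. Hist1h4n in control replicate 1 was at 1.51 CPM, against 3.65 to 4.86 CPM in the other controls. Such a gap arises by chance in about 1 of 20 groups, and 86 groups of 6 were examined.

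The effect of the H2A.Z guides differed between submission sets in 6 members (edgeR interaction test). The difference, set 2 minus set 1, was -0.48 in Hist1h1d (adjusted p = 0.0314), -0.79 in Hist1h2bp (adjusted p = 0.0104) and -0.83 in Hist2h2be (adjusted p = 0.000362). It was 0.93 in Hist1h4a (adjusted p = 0.00836), 0.57 in Hist1h4c (adjusted p = 0.0241) and 0.64 in Hist2h3b (adjusted p = 0.0256). Hist1h4a averaged 90.2 CPM in guide cells and 91.1 CPM in control cells in set 2, and 26.7 CPM in guide cells and 52.6 CPM in control cells in set 1.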

How the results depend on the processing

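Of 66 called results of single named members, none changed direction in any alternative, and 43 lost their call in at least 1. The model of all 20 samples cost most, with 30 lost calls. Counts of members called moved by over 1.5 times in these cases. For the H2A.Z guides, the count lower was 24, but 12 without the set covariate and 10 in set 1 alone. The share of all genes called lower was 32.7%, 26.7% and 13% in these fits. The count higher was 3, but 1 in set 1 alone, with 31.8% and 14.6% of all genes. For 4-OHT, the model of all 20 samples gave 0 higher and 2 lower in place of 9 and 11 (no member higher passed, by that edgeR fit), and DESeq2 gave 7 lower. Of all genes, the model of 20 samples called 9.48% higher and 9.02% lower, and DESeq2 called 15.1% lower. For the DEP mutant, the model of all 20 samples gave 19 higher and 4 lower in place of 33 and 9, with 26.2% and 27.9% of all genes. For the difference between sets, no filter on low counts gave 12 in place of 6, with 10.1% of all genes called in place of 15.7%. Leaving out the 3 samples highest in Rn45s, chosen after seeing the data, gave 1, with 4.15% of all genes. The cause was not tested.

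Leaving out 1 replicate at a time gave 2 to 4 higher and 20 to 32 lower with the guides, 3 to 19 higher and 4 to 12 lower with 4-OHT, 27 to 33 higher and 9 lower in the DEP mutant, and 2 to 24 for the difference between sets. The log2 ratio of class sums in the DEP mutant moved beyond the replicate spread in 5 cases, all above 0. For H1 it was 0.19, and 0.17 with library totals alone and with DESeq2 size factors. For H2a it was 0.10 with DESeq2 size factors. Summed per kb, H2b gave 0.15 and all members 0.10. With the replicate block, 14 members were higher with 4-OHT, with 20.9% of all genes. Replicate numbers did not pair the samples (correlations of same-numbered samples from -0.0768 to 0.121), so the block is given here only. Other counts stayed within 1.5 times under the block. A single remaining sample was assumed to vary like the other groups. Genes of a few reads per sample, such as Hist1h1t, are limited by depth.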
